A study of Rattus norvegicus with 25 samples.

Results

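The 13 sperm small RNA libraries of morphine-exposed male rats were compared between both collection timepoints, 7 libraries collected when self-administration ended (F0_MOR) and 6 collected after 90 days of abstinence (F0_ABS-MOR). They are 13 of the 25 libraries of the study and were selected by column names that end in REG_MOR or TO_MOR. No source used here spells out REG and TO, which were matched to the nonabstinent and the abstinent males by the selection rule and by the number of libraries in each group, and every direction given here rests on that match. All 13 males were Sprague–Dawley rats that had self-administered morphine through an intravenous catheter. The groups therefore differ in the time since morphine, not in whether the males had taken it. The study states that 90 days span all of rat spermatogenesis, so sperm of abstinent males had no direct exposure to morphine. The 12 other libraries, 7 F0_SAL and 5 F0_ABS-SAL, came from males that had self-administered saline and were used for the spread in the model and as a reference for the same interval. Mature sperm was taken from the cauda epididymis, the last segment of the duct in which sperm mature and are stored, and was purified by a double swim-up and by hypotonic saline washes that went on until no blood was visible. The F0_ABS-MOR males were also older at collection, and no preparation batch is given in the sources used here. Time since morphine, age and batch therefore cannot be told apart in this comparison.

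Sperm carry little new transcription, and their small RNA is what remains of spermatogenesis together with RNA acquired during passage through the epididymis. A miRNA is a short RNA cut from one arm of a hairpin precursor, 5p or 3p, and it recognises its targets mainly through the seed near its 5′ end. Many miRNAs are transcribed in genomic clusters, and miRNAs with the same seed are grouped as a family. snRNAs are the RNA components of the spliceosome, snoRNAs guide the modification of other RNAs in the nucleolus, and rRNAs build the ribosome. Sperm preparations can hold RNA of other cells, such as epididymal epithelium, blood vessels or blood, and in such bulk samples fewer cells of a type and less RNA per cell cannot be told apart.

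The authors deposited raw read counts for 562 mature miRNAs and 3804 Ensembl ncRNA transcripts. After rows with identical counts in all 25 libraries had been collapsed, 2086 distinct ncRNA rows remained. miRNA totals were between 1032386 and 2234951 in F0_MOR and between 1399862 and 2728574 in F0_ABS-MOR, and totals over distinct ncRNA rows were between 1303179 and 3727033 and between 2191101 and 4759773. The log2 difference of the miRNA totals was 0.43 (two-sided exact permutation test, p = 0.0571). miRNAs held 38.7% of the counts of both matrices in F0_MOR and 38.4% in F0_ABS-MOR (means; exact permutation test, p = 0.883). The lowest count above 0 in both matrices was 2. Libraries are named here by the letter of their column, and 2 of them stood apart. In library N (F0_MOR), rRNA took 22.7% of the ncRNA counts, against at most 9.19% in the other F0_MOR libraries. Library S (F0_ABS-MOR) correlated as well with F0_MOR as with its own group over the miRNAs (median Spearman rho 0.968 in both cases), and its closest library was U of F0_MOR. The closest library of each of the other 12 was in its own group. The main counts are also given without N and S.

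The mature sequences below are those the miRNA results turn on, taken from RefSeq with the assembly GRCr8, which holds a single mature sequence for 519 of the 562 miRNAs. The capitals mark the seed, bases 2 to 8, in every sequence. The first set shows miRNAs that rose after abstinence, with the pairs of 5p strands that share a seed (miR-200a and miR-200b, miR-24-1 and miR-24-2) and a cluster partner, miR-201-5p, that did not pass the fold threshold.
rno-miR-547-3p: aUUGGUACuucuuuaagugaga
rno-miR-547-5p: uCACUUCAggauguaccaccca
rno-miR-3585-5p: uUCACAAGaaggugucuuucau
rno-miR-201-5p: cACUCAGUaaggcauuguuc
rno-miR-200a-5p: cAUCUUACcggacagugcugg
rno-miR-200b-5p: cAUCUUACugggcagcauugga
rno-miR-24-1-5p: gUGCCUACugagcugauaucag
rno-miR-24-2-5p: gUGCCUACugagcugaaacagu
rno-miR-126a-3p: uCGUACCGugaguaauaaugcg
rno-miR-195-5p: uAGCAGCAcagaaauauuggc

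The second set shows miRNAs that fell, together with 2 that share a seed with them and were not called (miR-106b-5p and miR-32-5p) and miR-34b-3p, which was lower with no overlap but under the fold threshold. It also holds miR-34c-5p, the opposite strand of miR-34c-3p, and miR-15b-5p, which has the seed of miR-195-5p, and neither was called.
rno-miR-17-5p: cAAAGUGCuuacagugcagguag
rno-miR-20a-5p: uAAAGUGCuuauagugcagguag
rno-miR-93-5p: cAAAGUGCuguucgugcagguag
rno-miR-106b-5p: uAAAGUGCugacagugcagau
rno-miR-92a-3p: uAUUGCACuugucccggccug
rno-miR-92b-3p: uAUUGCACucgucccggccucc
rno-miR-25-3p: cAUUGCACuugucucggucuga
rno-miR-32-5p: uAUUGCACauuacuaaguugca
rno-let-7a-5p: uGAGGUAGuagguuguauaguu
rno-let-7g-5p: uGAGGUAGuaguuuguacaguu
rno-miR-98-5p: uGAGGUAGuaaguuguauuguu
rno-miR-34c-5p: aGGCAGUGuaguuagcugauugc
rno-miR-34c-3p: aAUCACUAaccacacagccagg
rno-miR-34b-3p: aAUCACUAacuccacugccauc
rno-miR-144-3p: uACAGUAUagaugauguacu
rno-miR-451-5p: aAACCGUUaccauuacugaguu
rno-miR-15b-5p: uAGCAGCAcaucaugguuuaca

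After abstinence, 35 miRNAs were higher and 32 lower than at the end of self-administration, among 317 that passed the filter on low counts. The leading rises were miR-547-3p and miR-547-5p of the X-linked testis cluster, miR-200a-5p of the epithelial miR-200 family, endothelial miR-126a and passenger strands of miR-24. The falls included strands of the miR-17/92 and miR-106b/25 clusters, let-7 members, the 3p strands of miR-34c and miR-449a, all tested strands of the Mir296 cluster and of the erythroid cluster of miR-144 and miR-451, miR-15b-3p and miR-9a-3p. A miRNA was called at an adjusted p under 0.1 (Benjamini–Hochberg, edgeR's quasi-likelihood test) with a log2 fold change beyond 0.58, which are the thresholds of the study. Called miRNAs were 21.1% of those tested, 11% higher and 10.1% lower, and 103 had an unadjusted p under 0.05. The median log2 fold change over all 317 was 0.00, over the higher ones 0.96 and over the lower ones -0.82. Without library S the counts were 44 higher and 36 lower, and without library N 37 and 35.

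In 11 miRNAs, 3.47% of those tested, every F0_ABS-MOR library lay on one side of every F0_MOR library, 6 above (miR-547-3p, miR-547-5p, miR-200a-5p, miR-126a-3p, miR-24-2-5p and miR-27b-3p) and 5 below (miR-93-5p, miR-98-5p, miR-34b-3p, miR-150-5p and miR-505-3p). Of these, 9 were called. The remaining pair, miR-27b-3p (log2 fold change 0.47 ± 0.15, SE, adjusted p = 0.0272) and miR-34b-3p, passed the adjusted p but not the fold threshold. The balance of higher and lower calls depended on scaling. With library total alone and no TMM factor, 57 were higher and 14 lower, and the median of all miRNAs moved up by 0.18. All 35 higher and all 32 lower miRNAs kept their sign under that scaling, under DESeq2 size factors and under 1 factor from both matrices, but 14, 31 and 21 of the 32 lower ones were still called.

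**Figure D1:**
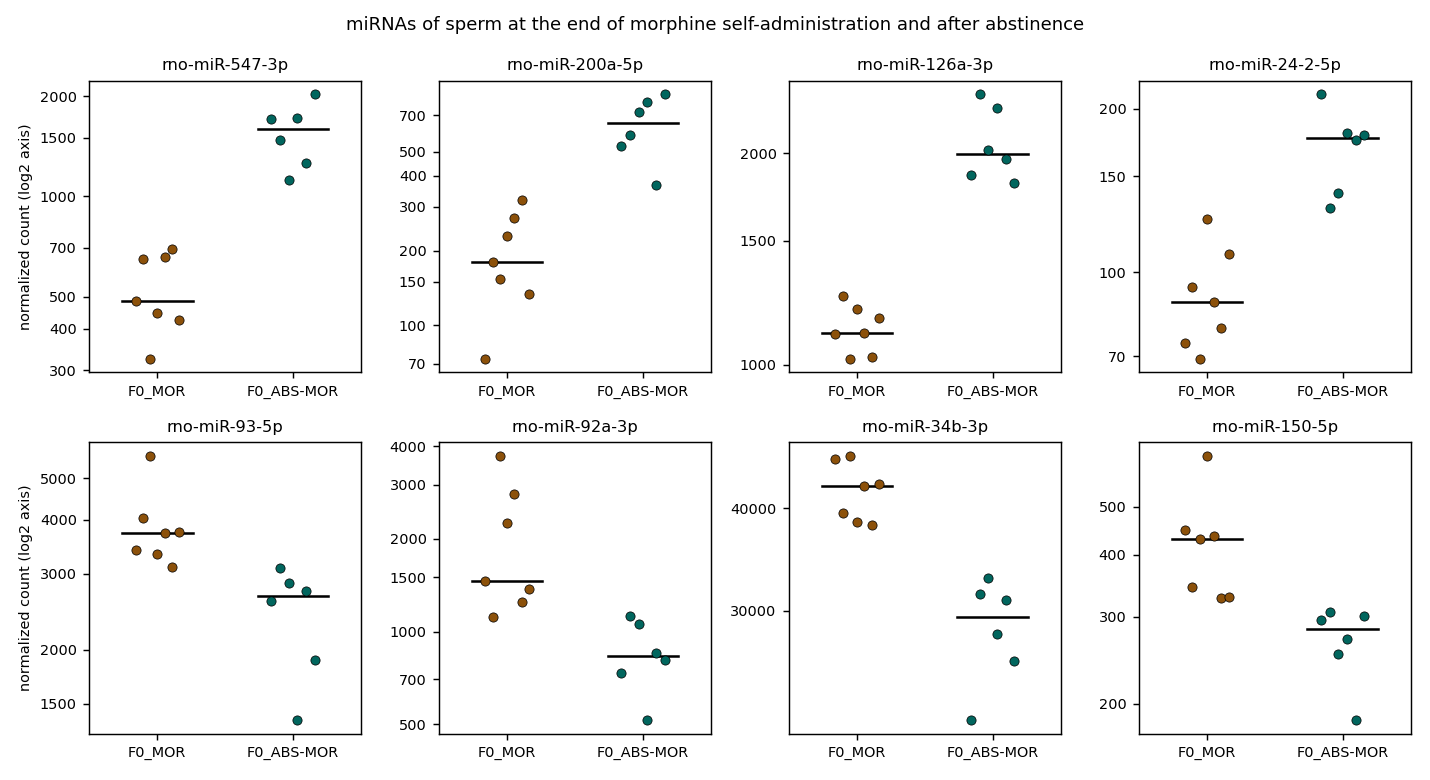
Normalized counts (raw counts scaled by library total and TMM factor, log2 axis) of 8 miRNAs in the 7 F0_MOR and 6 F0_ABS-MOR libraries, with a point for each library and a line at the median. miR-547-3p, miR-200a-5p, miR-126a-3p and miR-24-2-5p are higher after abstinence with no overlap, while miR-93-5p, miR-34b-3p and miR-150-5p are lower with no overlap and miR-92a-3p overlaps slightly.

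Among the X-linked miRNAs, which are expressed in the testis from a large group of hairpins on the X chromosome, the rise was found in a single cluster. miR-547-3p ranged from 324 to 697 normalized counts in F0_MOR (median 484) and from 1118 to 2030 in F0_ABS-MOR (median 1594). The groups did not overlap, and the log2 fold change was 1.56 ± 0.21 (SE, adjusted p = 7.21e-06), the smallest p of all miRNAs tested. Its opposite strand miR-547-5p was far less counted, between 2.66 and 26.3 (median 11.7) in F0_MOR and between 28.9 and 93.6 (median 35.4) in F0_ABS-MOR. It did not overlap between groups either and rose by 2.03 ± 0.39 on the log2 scale (adjusted p = 0.00106). The neighbouring miR-3585-5p was between 12 and 77.3 (median 23.4) in F0_MOR and between 24.1 and 153 (median 64.1) in F0_ABS-MOR, with overlap. Its log2 fold change was 1.12 ± 0.37 (adjusted p = 0.0364), and without library I it was 0.74 and not called.

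The third hairpin of that cluster gave miR-201-5p, between 165 and 346 (median 241) in F0_MOR and between 258 and 485.4 (median 380) in F0_ABS-MOR, with a log2 fold change of 0.53 ± 0.20 (adjusted p = 0.0691). It stood under the fold threshold and passed it without library N (0.61), T (0.60), J (0.60) or S (0.62). All 6 tested strands of the 3 hairpins had positive log2 fold changes, with a median of 0.97 and 3 called higher. Over the whole list of X-linked testis miRNAs, 30 were tested, 3 were called higher and 0 lower, beside 11% higher over all miRNAs. The median log2 fold change of the list was -0.06 beside 0.00 over all miRNAs. With library total alone that median was 0.11. The summed level of the list was between 57057 and 83925 normalized counts in F0_MOR and between 47217 and 80731 in F0_ABS-MOR, so the groups overlapped over most of their range. The rise was thus carried by strands of the miR-547, miR-3585 and miR-201 cluster, while 17 of the 30 had negative log2 fold changes, none of them called.

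The miR-200 family, which maintains the epithelial state and is abundant in epididymal epithelium, had 7 tested members, of which 3 were called higher and 0 lower, with a median of 0.53. miR-200a-5p was between 73.1 and 321 (median 180) in F0_MOR and between 366 and 852 (median 654) in F0_ABS-MOR. With no overlap, it rose by 1.73 ± 0.28 on the log2 scale (adjusted p = 9.69e-05). miR-200b-5p, which has the same seed and lies in the same cluster, was between 32.5 and 129 (median 62.7) and between 65.5 and 171 (median 130), with a log2 fold change of 0.82 ± 0.31 (adjusted p = 0.0691). It overlapped between groups and lost its call without library A (0.72), G (0.74), U (0.73) or I (0.75). miR-141-3p, from the second cluster of the family, was between 120 and 231 (median 172) and between 179 and 400 (median 272), a rise of 0.74 ± 0.23 (adjusted p = 0.0254).

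The abundant guide strands of the family moved less. miR-200a-3p was between 3194 and 6960 (median 4907) in F0_MOR and between 4670 and 8523 (median 7510) in F0_ABS-MOR, and its log2 fold change of 0.53 ± 0.22 (adjusted p = 0.0845) stood under the fold threshold. It passed without library B (0.59), N (0.63) or S (0.63). miR-200b-3p had a log2 fold change of 0.47 ± 0.21 (adjusted p = 0.103). The family sum was between 13536 and 20574 in F0_MOR (median 18179) and between 16089 and 31985 in F0_ABS-MOR (median 23415), with overlap. miR-205, another epithelial miRNA, was between 63.8 and 248 (median 187) and between 140 and 384 (median 327). Its log2 fold change was 0.80 ± 0.31 (adjusted p = 0.072), and the call was lost without library A (0.70), U (0.70), D (0.80) or J (0.72).

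Vascular and muscle miRNAs were among those that rose. miR-126a, the miRNA of endothelial cells, lay between 1019 and 1254 (median 1111) in F0_MOR and between 1813 and 2426 (median 1992) in F0_ABS-MOR for its 3p strand. The groups were separate and each was narrow, and the log2 fold change was 0.88 ± 0.20 (adjusted p = 0.00677). Its 5p strand rose by 1.02 ± 0.26 (adjusted p = 0.008), from a median of 81.5 (53.2 to 100) to a median of 152.2 (90.3 to 250). miR-143-3p, the main miRNA of smooth muscle, was between 23800 and 32126 (median 26243) and between 28554 and 66187 (median 41751). It overlapped, with a log2 fold change of 0.72 ± 0.26 (adjusted p = 0.0564), and was not called without library Q (0.58). Also higher were miR-143-5p (1.26 ± 0.48, adjusted p = 0.067) and the muscle miRNA miR-1b (1.00 ± 0.39, adjusted p = 0.0699). Both lost their call without library A (1.17 and 0.93), G (1.18 and 0.93), D (1.20 and 0.97) or Q (1.00 and 0.72), and miR-143-5p also without I (1.17). Of the 7 muscle miRNAs tested, 5 were positive and 2 negative. The negative ones were miR-1-3p (-0.31), which has the seed of miR-1b, and miR-145-3p (-0.01). Neither was called, nor were miR-145-5p (0.66) and miR-133a-3p (0.55).

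The family of miR-23, miR-27 and miR-24 is made from a pair of paralogous clusters, and 3 of its 9 tested members were higher and 0 lower, with a median of 0.47. miR-24-2-5p was between 69.1 and 125 (median 88.0) in F0_MOR and between 131 and 213 (median 177) in F0_ABS-MOR, without overlap, a rise of 0.90 ± 0.20 (adjusted p = 0.00631). Its counterpart from the other cluster, miR-24-1-5p, shares the seed. It was scarce, between 4.15 and 10.7 (median 8.43) in F0_MOR and between 10 and 32.6 (median 25.5) in F0_ABS-MOR, and 1 F0_ABS-MOR library lay inside the F0_MOR range. The log2 fold change was 1.43 ± 0.35 (adjusted p = 0.008). miR-27a-3p, the guide strand next to miR-24-2, was between 872 and 1667 (median 1444) and between 1648 and 3690 (median 2899), a rise of 0.95 ± 0.22 (adjusted p = 0.00677).

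miR-101a-3p was higher by 1.12 ± 0.28 (adjusted p = 0.008), from a median of 2974 (1453 to 5777) to a median of 6403 (4402 to 12910), and 3 of the 6 F0_ABS-MOR libraries lay above every F0_MOR library. miR-99a-5p, among the 5 most abundant miRNAs, was between 24257 and 40607 (median 32234) and between 27830 and 83597 (median 60216). It rose by 0.85 ± 0.22 (adjusted p = 0.0107), with 4 of 6 libraries above the F0_MOR range. In the family of miR-10, miR-99 and miR-100, 2 of 8 tested were higher and 0 lower (median 0.50), the other called member being miR-100-5p (0.70 ± 0.26, adjusted p = 0.0585). The miR-125 family, whose hairpins lie near those of miR-99 and miR-100, had 1 of 5 higher (median 0.56). That member, miR-125b-5p, had a log2 fold change of 0.64 ± 0.26 (adjusted p = 0.0844) and lost its call without library A (0.59), N (0.59) or X (0.52). miR-96-5p, from the sensory and epithelial miR-183 cluster, was higher by 0.96 ± 0.27 (adjusted p = 0.0141), and all 3 tested members of that list were positive.

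Within the imprinted Dlk1-Dio3 cluster, 22 miRNAs were tested, 2 were called higher and 0 lower, 17 were positive and the median was 0.51. Over all miRNAs tested 11% were called higher, so the number called does not set this cluster apart. The called members were miR-411-5p (0.87 ± 0.25, adjusted p = 0.0179), with medians of 76.6 and 122, and miR-434-5p (1.08 ± 0.40, adjusted p = 0.0618), with medians of 13.3 and 31.4. Single members of other lists were higher, among them miR-221-5p (1.38 ± 0.33, adjusted p = 0.008), miR-199a-5p (1.15 ± 0.33, adjusted p = 0.0196), miR-146a-5p (0.67 ± 0.21, adjusted p = 0.0261) and miR-29c-5p (1.22 ± 0.47, adjusted p = 0.0672). miR-29c-5p was not called without library G (1.02) or I (0.93). The list of miR-15 and miR-16 was split, with 2 higher, 1 lower and a median of 0.17 over 9 tested. miR-195-5p rose by 0.75 ± 0.24 (adjusted p = 0.0272) and miR-322-5p by 1.27 ± 0.46 (adjusted p = 0.0585, not called without library A at 1.16 or I at 1.15), while miR-15b-3p fell by 0.86 ± 0.21 on the log2 scale (adjusted p = 0.008). miR-15b-5p, with the seed of miR-195-5p, had a log2 fold change of -0.31 ± 0.21 (adjusted p = 0.296).

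**Figure D2:**
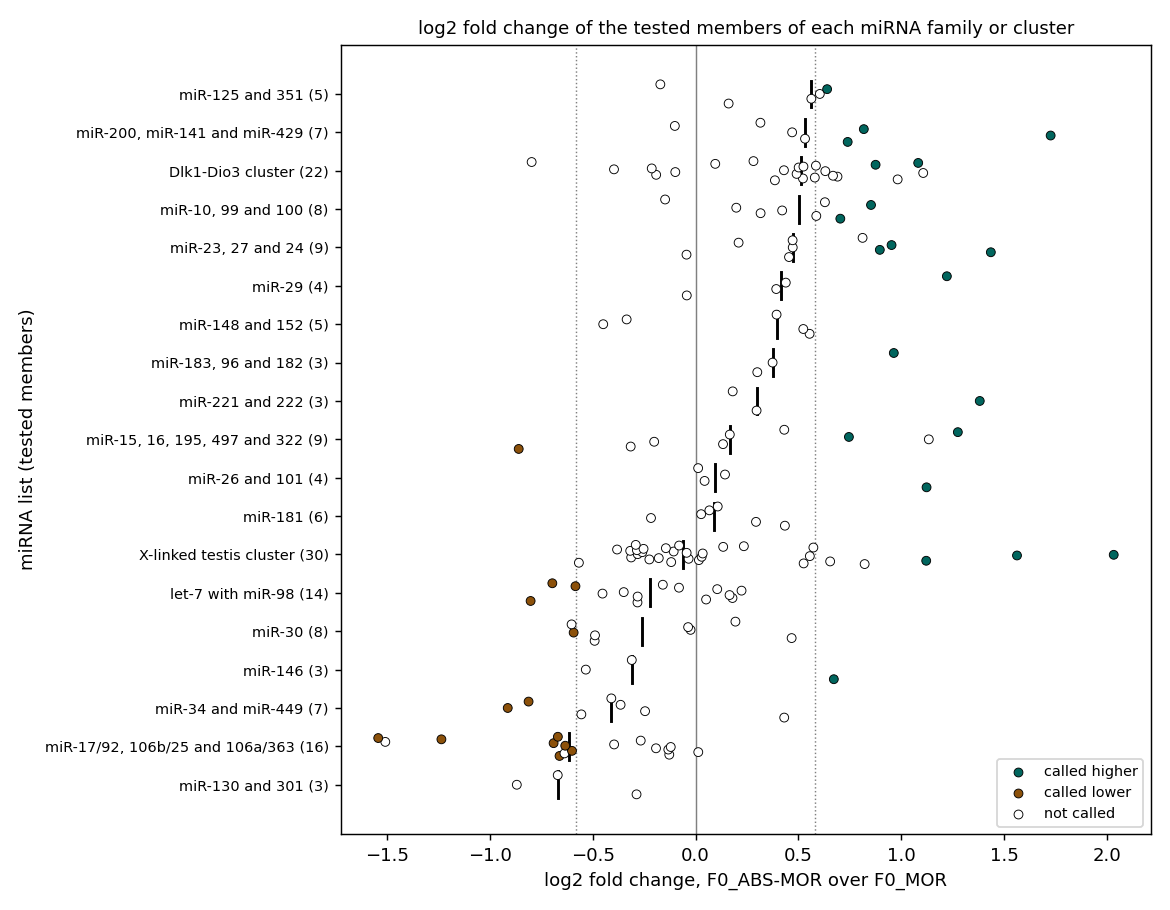
log2 fold change (F0_ABS-MOR over F0_MOR) of every tested member of each miRNA list with at least 3 tested members, a point for each miRNA, filled where called and open where not, with a bar at the median and dotted lines at the fold threshold of 0.58. The list of miR-17/92 and its paralogues holds 7 called lower and 0 higher, and the X-linked testis cluster holds 3 called higher around a median of -0.06.

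The miR-17/92 family and its paralogues, which are tied to cell proliferation and are made in spermatogonia, held the largest group of falls among the lists examined. Of 16 tested members 7 were lower and 0 higher, 15 were negative and the median was -0.62. The summed level was between 31069 and 74362 normalized counts in F0_MOR (median 41131) and between 20966 and 36049 in F0_ABS-MOR (median 29275), with overlap. All 7 tested strands of the Mir17 cluster and all 5 of the Mir25 cluster (miR-106b, miR-93 and miR-25) were negative, and 3 were called in each.

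The fall was found in both main seed groups of the family. With the seed of miR-17, 3 of 5 were lower (miR-93-5p, miR-17-5p and miR-20a-5p), and with the seed of miR-92, 3 of 5 (miR-92a-3p, miR-92b-3p and miR-25-3p). miR-93-5p was between 3108 and 5634 (median 3735) in F0_MOR and between 1372 and 3096 (median 2669) in F0_ABS-MOR. Without overlap, though by a narrow margin, its log2 fold change was -0.67 ± 0.20 (adjusted p = 0.0197). miR-92a-3p was between 1112 and 3730 (median 1465) and between 515 and 1121 (median 832), with 5 of 6 libraries below every F0_MOR library and a log2 fold change of -1.23 ± 0.31 (adjusted p = 0.008). miR-92b-3p, transcribed on its own, was scarce, with medians of 25 and 9.22 and a log2 fold change of -1.54 ± 0.42 (adjusted p = 0.0141). miR-106b-3p, a passenger strand, fell from a median of 4572 (3245 to 5317) to a median of 2763 (2151 to 3642), a log2 fold change of -0.66 ± 0.16 (adjusted p = 0.008).

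The other called members were closer to the threshold. miR-25-3p, the most counted of them, was between 11309 and 35085 (median 15260) and between 7563 and 14142 (median 11049), a log2 fold change of -0.69 ± 0.25 (adjusted p = 0.0612). miR-20a-5p had a log2 fold change of -0.63 ± 0.24 (adjusted p = 0.0689) and miR-17-5p of -0.60 ± 0.22 (adjusted p = 0.0578). miR-17-5p lost its call without library B (-0.56), G (-0.50), U (-0.57), Q (-0.47) or X (-0.54) and under 6 of 10 other settings, and miR-20a-5p without G (-0.50), U (-0.59), Q (-0.47) or X (-0.55) and under 4 of 10. miR-25-3p lost it without G (-0.43), D (-0.61) or Q (-0.62) and under 3 of 10, and miR-93-5p without G (-0.56) or Q (-0.53) and under 3 of 10. In the same seed group as miR-92a-3p, miR-32-5p, which comes from another locus, had a log2 fold change of 0.25 ± 0.20 (adjusted p = 0.417). The number of members called lower stayed at 6 or 7 in 9 of the 13 fits that left out 1 library, and was 4 without G, 5 without U, 5 without X and 3 without Q. With library total alone, 2 members were called lower and the median was -0.43, beside 0.18 over all miRNAs.

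let-7, which accumulates in differentiated cells, had 3 of 14 tested members lower and 0 higher, with a median of -0.22. let-7a-5p was between 12101 and 21527 (median 15271) in F0_MOR and between 5229 and 12219 (median 9071) in F0_ABS-MOR. The groups barely overlapped, and the log2 fold change was -0.80 ± 0.23 (adjusted p = 0.0197). let-7g-5p lay between 41559 and 59606 (median 47085) and between 21261 and 41579 (median 32376), a log2 fold change of -0.58 ± 0.17 (adjusted p = 0.0197). It was at the edge of the fold threshold and was not called without library A (-0.53), U (-0.58), I (-0.49), J (-0.54) or Q (-0.56), nor under 8 of 10 other settings. miR-98-5p, of the same seed, was between 194.1 and 284 (median 208) and between 99.9 and 183 (median 135), without overlap, with a log2 fold change of -0.70 ± 0.22 (adjusted p = 0.0272). Among the 9 strands with this seed, 6 were negative and 3 positive. With library total alone, 0 let-7 members were called and the median was -0.03.

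The miR-34 and miR-449 family is required for late spermatogenesis, and its miR-34c-5p was the most abundant miRNA, with a mean share of 36.8% of miRNA counts. miR-34c-5p took between 30.9% and 43.4% of the miRNA counts in F0_MOR (median 41.1%) and between 19.6% and 43.5% in F0_ABS-MOR (median 36.8%). Its groups overlapped, and its log2 fold change was -0.36 ± 0.20 (adjusted p = 0.188). The 3p strand miR-34c-3p did fall, from a median of 4546 (3196 to 6343) to a median of 2475 (1647 to 3734), with a log2 fold change of -0.91 ± 0.23 (adjusted p = 0.008). miR-34b-3p, with the same seed as miR-34c-3p, was between 38127 and 46333 (median 42616) and between 22063 and 32872 (median 29494). Although the groups did not overlap, its log2 fold change of -0.55 ± 0.15 (adjusted p = 0.0141) stayed within the fold threshold, and it passed without library M (-0.59), T (-0.58), I (-0.58) or J (-0.62).

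miR-449a-3p was lower by a log2 fold change of -0.81 ± 0.30 (adjusted p = 0.0618), with medians of 80.7 and 47.9. It lost its call without library A (-0.66), U (-0.71), I (-0.67) or J (-0.74). Its guide strand miR-449a-5p had a log2 fold change of -0.41 ± 0.22 (adjusted p = 0.19). Over the family, 2 of 7 tested were lower, 0 were higher and the median was -0.41. Of the 5 most abundant miRNAs, miR-99a-5p was the single one called. The log2 fold changes of the 3 others beside miR-34c-5p were -0.44 ± 0.22 for miR-7a-5p (adjusted p = 0.153), 0.55 ± 0.23 for miR-148a-3p (adjusted p = 0.0927) and 0.26 ± 0.13 for miR-21-5p (adjusted p = 0.142). miR-7a-5p passed both thresholds without library S (-0.61), and miR-148a-3p without T (0.69), U (0.59), D (0.65) or I (0.61).

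In 2 small clusters all tested strands were called lower. In the imprinted Mir296 cluster, miR-298-5p fell from a median of 92.4 (51.9 to 126) to a median of 41.0 (28.9 to 78.4), a log2 fold change of -0.96 ± 0.24 (adjusted p = 0.008). miR-298-3p had a log2 fold change of -0.82 ± 0.23 (adjusted p = 0.0141) and miR-296-5p of -1.28 ± 0.39 (adjusted p = 0.0254). In the Mir144 cluster, whose miRNAs are made in erythroid cells, miR-144-5p was between 142 and 342 (median 283) and between 25.6 and 202 (median 120). Of its 6 F0_ABS-MOR libraries 5 lay below the F0_MOR range, and the log2 fold change was -1.12 ± 0.29 (adjusted p = 0.0109). miR-451-5p was between 1383 and 3754 (median 2155) and between 475 and 2030 (median 1284), a log2 fold change of -0.95 ± 0.31 (adjusted p = 0.0308). The third strand, miR-144-3p, had a log2 fold change of -0.65 ± 0.27 (adjusted p = 0.0927) and was not called without library G (-0.67), N (-0.56), U (-0.51), I (-0.54), J (-0.60) or Q (-0.50), nor under 6 of 10 other settings.

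Outside these clusters, miR-30c-5p, an abundant miRNA of many tissues, was between 20281 and 29955 (median 24338) and between 13503 and 23721 (median 15549), with a log2 fold change of -0.59 ± 0.16 (adjusted p = 0.0141). It lay at the fold threshold and was under it without library A (-0.57), G (-0.55), M (-0.58), U (-0.56), D (-0.55), I (-0.57), Q (-0.54) or X (-0.56), and its call was lost under 5 of 10 other settings. In the miR-30 list 1 of 8 was lower and 0 higher, with a median of -0.26. In the lists of miR-181 (6 tested), miR-148 and miR-152 (5), miR-130 and miR-301 (3), miR-103 and miR-107 (2), miR-192, miR-194 and miR-215 (2) and miR-378 (1), 0 members were called.

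More 5p than 3p strands were called higher. Among the 5p strands 24 were higher, 16 lower and 114 not called, and among the 3p strands 9 were higher, 15 lower and 125 not called, with median log2 fold changes of 0.00 and -0.01. For 91 hairpins both strands were tested, and the log2 ratio of 5p to 3p counts, which does not depend on the scaling of libraries, was compared with limma. The ratio changed in 5 hairpins, 5.49% of those tested, each time towards the 5p strand, and 11 hairpins had an unadjusted p under 0.05. For miR-200a the ratio lay between -5.67 and -4.13 in F0_MOR (median -4.69) and between -3.98 and -3.01 in F0_ABS-MOR (median -3.44), without overlap, a difference of 1.25 ± 0.23 (SE, limma adjusted p = 0.00139). For miR-199a it lay between -3.53 and -3.18 (median -3.35) and between -2.93 and -2.12 (median -2.75), again without overlap, a difference of 0.77 ± 0.19 (limma adjusted p = 0.0174).

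In the other 3 hairpins the groups overlapped, and each had a limma adjusted p of 0.0891. The difference was 1.47 ± 0.47 for miR-434, 1.12 ± 0.36 for miR-221 and 1.11 ± 0.36 for miR-9a. For miR-434, F0_MOR library T lay at -6.19, far below the other F0_MOR libraries, which were at -3.36 or above. The F0_ABS-MOR libraries were between -1.94 and -1.28. In miR-434 and miR-221 the change followed a rise of the scarcer 5p strand. In miR-9a the 3p strand fell, from a median of 216 (81.1 to 384) to a median of 104.3 (69.7 to 127) normalized counts, with a log2 fold change of -1.10 ± 0.34 (adjusted p = 0.0254). The ratio of miR-9a was between 2.22 and 4.25 (median 2.46) in F0_MOR and between 3.51 and 4.58 (median 3.78) in F0_ABS-MOR. With libraries left out in turn, between 2 and 5 hairpins were called, 2 without U, D, I, J, Q or X and 3 without A, B, G, M or N. Over the 91 hairpins, both strands were called higher in 5 and lower in 2, 1 strand was called in 28 and neither in 56. No hairpin had strands called in opposite directions, and 70 had log2 fold changes of the same sign on both strands.

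**Figure D3:**
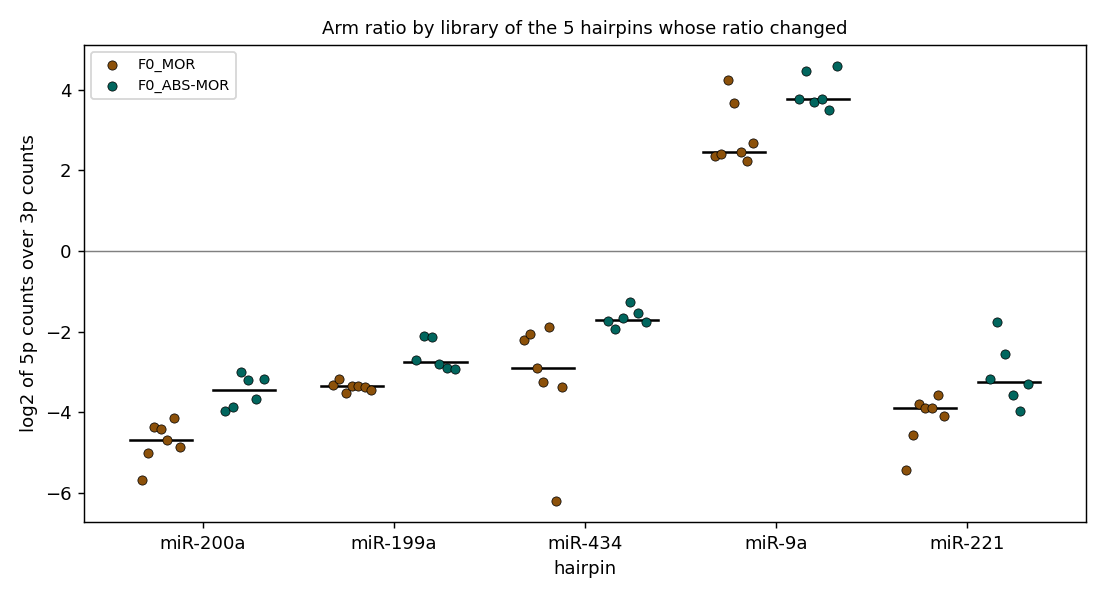
log2 ratio of 5p to 3p counts in each of the 13 libraries for the 5 hairpins whose ratio changed, with F0_MOR on the left and F0_ABS-MOR on the right of each pair, a point for each library and a line at the median. The F0_ABS-MOR medians lie above the F0_MOR medians in all 5 hairpins, and the groups do not overlap for miR-200a and miR-199a.

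The miRNAs known as markers of other cell types were read against these results. Among the male germ cell miRNAs, 22 were tested, 0 were higher and 2 were lower (miR-34c-3p and miR-449a-3p), beside 10.1% lower over all miRNAs. Of the germ cell miRNAs tested, 18 were negative and the median was -0.27. They took between 39.3% and 49.7% of the miRNA counts in F0_MOR and between 26.4% and 49.2% in F0_ABS-MOR, and 2 of the 25 listed, miR-880-5p and miR-449c-5p, were at 0 in all 13 libraries. With library total alone, 1 of the 22 was called higher and 1 lower. The sperm markers were thus present in every library, in overlapping shares.

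Endothelial miRNAs were higher in 2 of 2, and their sum was between 1072 and 1346 normalized counts in F0_MOR and between 1903 and 2677 in F0_ABS-MOR, without overlap. Of 12 epithelial miRNAs 4 were higher and 0 lower, with a sum between 15404 and 22033 and between 17690 and 33350. By sign, 7 of them were positive and 5 negative. The negative ones included miR-203a-3p and miR-203b-3p (log2 fold changes between -0.30 and -0.21) and both strands of miR-31a (between -0.43 and -0.38), none of them called. Of 7 muscle miRNAs 3 were higher and 0 lower, with a sum between 24417 and 33128 and between 29724 and 68419, and without library Q the count was 0, without A, D or G 1, and without I 2. Of 3 erythroid miRNAs 3 were lower and 0 higher, with a sum between 1741 and 4357 and between 565 and 2372. Among 7 leukocyte miRNAs 1 was higher (miR-146a-5p) and 1 lower (miR-150-5p), with a sum between 2953 and 4621 and between 3696 and 5634. Among 4 neuronal miRNAs 1 was lower (miR-9a-3p), with a sum between 3515 and 5930 and between 2578 and 6732. No member of these 6 lists that is in the matrix was at 0 in all 13 libraries. The erythroid marker miR-486 and the endothelial marker miR-126b are not in the matrix. The 3 erythroid strands tested all belong to the Mir144 cluster. The lists of endothelium, epithelium, muscle, erythroid cells, leukocytes and neurons therefore each held at least 1 called member, beside 21.1% called over all miRNAs. The sums overlapped in all of these lists but endothelium. The part of these cells in the other results was not tested.

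miR-150-5p, a miRNA of mature lymphocytes that the study singled out in nonabstinent morphine-exposed males, was between 327 and 634 (median 430.8) in F0_MOR and between 185 and 306 (median 283) in F0_ABS-MOR. The groups did not overlap, and the log2 fold change was -0.65 ± 0.27 (adjusted p = 0.0845). A two-sided exact permutation test of log2 CPM over the 13 libraries gave a difference of -0.63 (p = 0.00175). The study itself called miR-150-5p for F0_MOR against F0_ABS-MOR and not for the saline timepoints. It chose this miRNA from a comparison that held the same F0_MOR libraries. This p therefore repeats a reported contrast and is not independent of that choice. In the saline groups the median was 164 in F0_SAL and 221.9 in F0_ABS-SAL, with a log2 fold change of 0.03. The call was lost without library A (-0.63), G (-0.64), M (-0.53), D (-0.68), J (-0.64), Q (-0.63) or S (-0.56), and under 6 of 10 other settings.

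Most of the called miRNAs had the same direction in the saline groups. Of the 67 called miRNAs, 62 had the same sign between F0_ABS-SAL and F0_SAL and 45 were also called there. Those comparisons rest on different libraries fitted in the same model. The same counts were not made over all 317 tested, so no excess over such a share can be read from them. miR-547-3p had a log2 fold change of 1.53 and miR-126a-3p of 1.25 in the saline groups. The 5 miRNAs with the opposite sign were miR-24-1-5p, miR-9a-3p, miR-151-5p, miR-423-5p and miR-150-5p. The interaction, the difference between the morphine and the saline timepoint effects, was called for 0 of 317 miRNAs with edgeR and for 0 with DESeq2. In edgeR 10 had an unadjusted p under 0.05, and the smallest adjusted p was 0.467. It belonged to miR-24-1-5p, with a log2 fold change of 1.43 in the morphine and -0.32 in the saline groups and an interaction of 1.75 ± 0.50 (SE, unadjusted p = 0.00147). Its level lay between 8.29 and 15.6 (median 13.3) in F0_SAL and had a median of 11.7 in F0_ABS-SAL, so that F0_MOR was the group with the lowest and F0_ABS-MOR the group with the highest median.

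**Figure D4:**
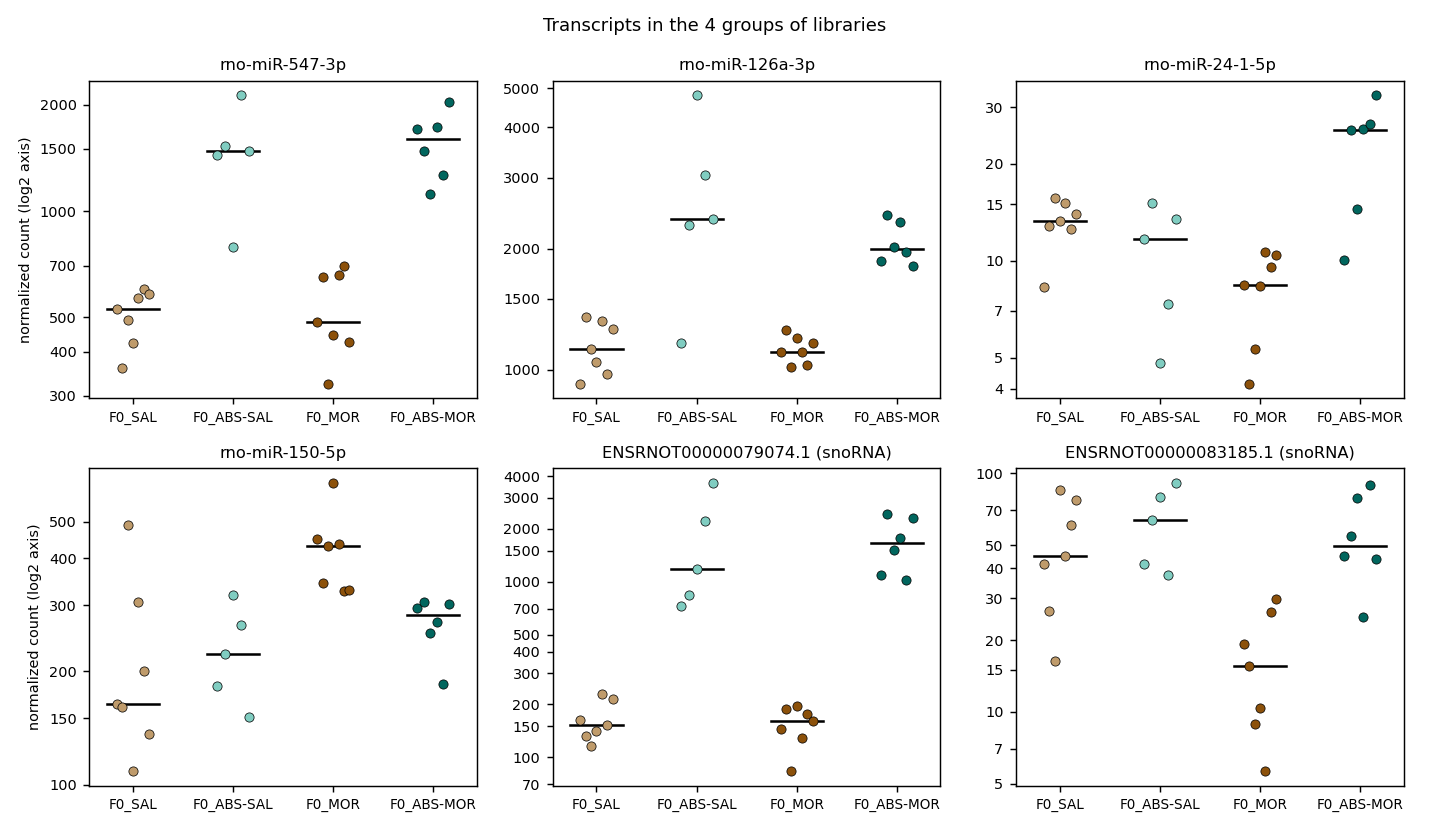
Normalized counts (log2 axis) of 4 miRNAs and 2 snoRNA transcripts in the 7 F0_SAL, 5 F0_ABS-SAL, 7 F0_MOR and 6 F0_ABS-MOR libraries, with a point for each library and a line at the median. miR-547-3p, miR-126a-3p and snoRNA ENSRNOT00000079074.1 have higher medians after the interval in both treatments, whereas snoRNA ENSRNOT00000083185.1 and miR-150-5p differ mostly through the F0_MOR libraries.

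In the ncRNA matrix, 105 distinct rows were higher and 38 lower after abstinence, and the 266 others that passed the filter were not called. In this fit, snoRNAs and snRNAs had the highest medians of the biotypes with more than 10 rows tested. The snRNA rank did not hold in every fit, as given below. The rRNA rows were divided between rises of scarce rows and falls of mostly abundant ones. Called rows were 35% of those tested, 25.7% higher and 9.29% lower, and 159 had an unadjusted p under 0.05. In 58 rows, 14.2% of those tested, the groups did not overlap, 56 with F0_ABS-MOR above and 2 below. The filter did not require counts in both groups, so a row could pass through only the libraries in which it was high. The matrix does not give gene names, and many rows are near copies that share reads. When rows within 3 counts or 5% of each other in every library were joined, the tested rows formed 339 groups, of which 83 were called higher and 28 lower. The median log2 fold change over all tested rows was 0.20.

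This balance depended on scaling and on single libraries. DESeq2 size factors gave 88 higher and 79 lower rows, and near copies reduced to 1 row before fitting gave 63 and 62. Without library N 184 rows were called, 77 of them higher, and there were 73 higher and 83 lower without I, 81 and 71 without G, 85 and 63 without J, 92 and 64 without U, 84 and 59 without X and 103 and 51 without S. The log2 fold changes of all ncRNA rows named here were more negative or less positive without library N. All 105 higher and all 38 lower rows kept their sign under the 3 other scalings tried, where between 83 and 89 of the 105 and all 38 were still called. The median of all rows shifted by -0.25 under DESeq2 size factors, by -0.11 with library total alone and by -0.26 with 1 factor from both matrices.

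By share of the distinct ncRNA counts, snRNA rose from 5.89% ± 2.14 (SD, n = 7) to 18.5% ± 4.59 (SD, n = 6), and snoRNA from 0.0295% ± 0.0103 to 0.222% ± 0.104. Neither overlapped between groups, and the two-sided exact permutation test gave p = 5.83e-04 for each, which is the lowest p that 7 against 6 libraries can give (p = 0.00175 after adjustment over 6 biotypes). The snRNA share lay between 2.25% and 8.39% in F0_MOR and between 13.6% and 26% in F0_ABS-MOR. misc_RNA, the Ensembl class that holds signal recognition particle, 7SK and Y RNAs among others, fell from 7.44% ± 1.71 to 5.37% ± 0.949 (exact permutation test, adjusted p = 0.049). Its adjusted p was 0.101 without library D, I, J or S, with differences of -1.95, -1.92, -1.97 and -1.97 percentage points. When near copies were reduced to 1 row, its difference was -0.639 percentage points (exact permutation test, adjusted p = 0.308).

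Mitochondrial rRNA, which took most of the ncRNA counts in 2 rows, was 77.4% ± 9.37 and 70.4% ± 6.70 (exact permutation test, adjusted p = 0.186), and this difference was past the threshold without library N at -10.1 percentage points (adjusted p = 0.026). Cytoplasmic rRNA was 8.82% ± 6.49 and 4.99% ± 1.43 (exact permutation test, adjusted p = 0.186), lincRNA 0.304% ± 0.108 and 0.396% ± 0.137 (exact permutation test, adjusted p = 0.207). Without library N the rRNA difference was -1.52 percentage points, and without A it was -4.78 (exact permutation test, adjusted p = 0.0519). With mitochondrial rRNA taken out of the total, snRNA made up 26.5% ± 6.35 and 62.3% ± 3.96 of the counts, misc_RNA 35.7% ± 10.2 and 18.4% ± 2.39, and rRNA 35.8% ± 9.61 and 16.8% ± 3.21. In each of these the groups did not overlap. Shares are parts of 1 total, so a larger snRNA share by itself lowers those of misc_RNA and rRNA. Whether these fell apart from the rise of snRNA was not tested. With near copies reduced to 1 row, the snRNA share was 3.24% ± 1.29 and 10.8% ± 2.69 and the snoRNA share 0.0271% ± 0.00989 and 0.189% ± 0.0943.

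**Figure D5:**
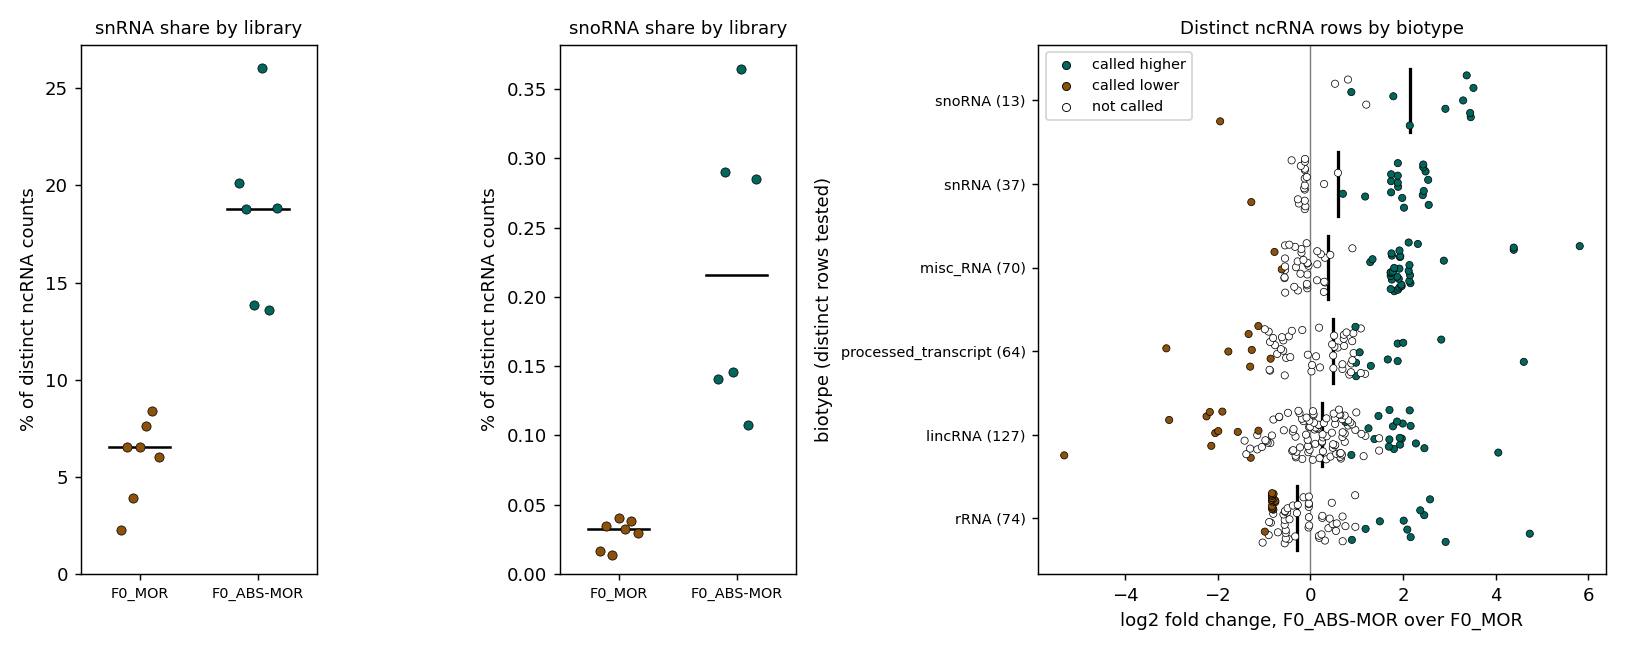
Left and middle, percent of distinct ncRNA counts on snRNA and snoRNA in each of the 7 F0_MOR and 6 F0_ABS-MOR libraries, with a line at the median. Right, log2 fold change (F0_ABS-MOR over F0_MOR) of the distinct ncRNA rows tested in 6 biotypes, filled where called and open where not, with a bar at the median, which is 2.15 for snoRNA and -0.28 for rRNA.

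Of 13 snoRNA rows tested, 9 were higher and 1 lower, with a median log2 fold change of 2.15 beside 0.20 over all rows. The snoRNA ENSRNOT00000079074.1 was between 83.2 and 197 normalized counts in F0_MOR (median 160) and between 1024 and 2432 in F0_ABS-MOR (median 1653). The groups were far apart, with a log2 fold change of 3.46 ± 0.34 (SE, adjusted p = 9.83e-10), and 3.40 between the saline groups. Without library N it was 2.82 and without I 2.81. A second snoRNA, ENSRNOT00000086241.1, rose by 3.52 ± 0.35 (adjusted p = 9.83e-10), from a median of 136.2 to a median of 1522. ENSRNOT00000077206.1 was between 61.0 and 121 (median 90.3) and between 186 and 861 (median 317), without overlap. Its log2 fold change was 2.15 ± 0.32 (adjusted p = 2.85e-06), and it was 1.53 without library N and 1.29 without I. ENSRNOT00000092057.1 rose from a median of 8.71 (0 to 32.6) to a median of 149 (62.7 to 213), a log2 fold change of 3.37 ± 0.55 (adjusted p = 1.42e-05).

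The snoRNA ENSRNOT00000083185.1, chosen from an earlier analysis of these data and matched here to no gene symbol, was between 5.64 and 29.6 (median 15.6) in F0_MOR and between 25.1 and 89.0 (median 49.8) in F0_ABS-MOR. The groups overlapped slightly, and the log2 fold change was 1.79 ± 0.43 (adjusted p = 0.00143). The two-sided exact permutation test of log2 CPM gave a difference of 1.70 (p = 0.00291), but the row was chosen from these same data. It stayed called without each library, at 1.06 without N and 1.29 without I. Between the saline groups its log2 fold change was 0.32 (adjusted p = 0.62), with medians of 44.9 in F0_SAL and 63.9 in F0_ABS-SAL, so that its median was lowest in F0_MOR among the 4 groups, and the interaction was 1.47 ± 0.61 (unadjusted p = 0.021, adjusted p = 0.99). The snoRNA ENSRNOT00000078081.1 went the other way, from a median of 29.9 (5.64 to 32.6) to a median of 5.61 (3.80 to 8.57), a log2 fold change of -1.95 ± 0.48 (adjusted p = 0.00171). It was the single snoRNA row called lower.

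Of 37 snRNA rows 18 were higher and 1 lower, with a median of 0.59, and joined by shared reads they were 20 groups, of which 8 were higher and 1 lower. With near copies reduced to 1 row before fitting, the median over 21 snRNA rows was -0.46, beside -0.11 over all rows. The snRNA median was 0.43 without library T and 0.17 without U, under the misc_RNA medians of 0.63 and 0.23. The most counted snRNA row, ENSRNOT00000077425.1, stands for 11 transcripts with identical counts. It was between 13084 and 29697 (median 24111) in F0_MOR and between 54259 and 113029 (median 98454) in F0_ABS-MOR, without overlap, a log2 fold change of 2.02 ± 0.21 (adjusted p = 1.25e-09) that was 1.36 without library N and 1.44 without I. ENSRNOT00000083077.1 was between 7004 and 14736 (median 12722) and between 42403 and 54766 (median 44537), and rose by 1.98 ± 0.20 (adjusted p = 1.25e-09). ENSRNOT00000083104.1, of intermediate level, was between 454 and 1400 (median 812) and between 1576 and 2446 (median 2008), a rise of 1.18 ± 0.26 (adjusted p = 0.000793) that was 0.71 without library N and 0.68 without I. The snRNA rows that rose had F0_MOR medians from 5.92 up to 24111 normalized counts, whereas the 18 that were not called had medians of at most 900. Rows were counted by biotype in the main fit, under the other scalings, with near copies reduced, without mitochondrial rRNA and with each library left out. Across these fits, between 7 and 10 snoRNA rows were higher and 1 was lower. Between 17 and 18 snRNA rows were higher, except 7 of 21 with near copies reduced. The remaining settings were not counted by biotype.

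In misc_RNA, 33 of 70 rows were higher and 2 lower, with a median of 0.37, although the share of the class in the ncRNA counts fell. The rows that rose were scarce, with F0_MOR medians of at most 103 normalized counts. The most counted row of the class was not called, with a log2 fold change of -0.56. Of 74 rRNA rows 11 were higher and 15 lower, with a median of -0.28. The higher ones had F0_MOR medians of at most 102 normalized counts, and the lower ones ranged up to 7380. The lower ones were mostly near copies of the same reads, 15 rows in 7 groups. Over the same settings and libraries left out, the number of lower rRNA rows was between 14 and 31. Those of misc_RNA were between 0 and 25. The pair of mitochondrial rRNA rows was not called.

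Long noncoding rows moved in both directions, with 20 of 127 lincRNA rows higher and 11 lower (median 0.25) and 11 of 64 processed transcripts higher and 7 lower (median 0.48). Reads of small RNA libraries on such transcripts are fragments of them. The processed transcript ENSRNOT00000057718.5 was between 0 and 16.6 (median 7.69) in F0_MOR and between 133 and 322.7 (median 224) in F0_ABS-MOR. It had the largest separation of the processed transcripts, with a log2 fold change of 4.61 ± 0.54 (adjusted p = 1.83e-08). As a row scarce in F0_MOR, it could pass the filter through the abstinent libraries alone. The lincRNA ENSRNOT00000088248.1 fell from a median of 140 (29.5 to 360) to a median of 15.2 (4.50 to 37.5), a log2 fold change of -3.05 ± 0.59 (adjusted p = 0.000211). A second lincRNA, ENSRNOT00000091531.1, had a log2 fold change of -1.90 ± 0.50 (adjusted p = 0.00359), and ENSRNOT00000091412.1 of -2.17 ± 0.48 (adjusted p = 0.000837), the latter without overlap. The most counted lincRNA, ENSRNOT00000087930.1, was higher by 0.75 ± 0.26 (adjusted p = 0.0254), but was not called without library G (0.55), N (0.07), I (0.10) or X (0.60), nor under 5 of 11 other settings. In the remaining biotypes, 2 of 16 rows annotated as miRNA and 1 of 3 antisense rows were higher, and 1 of 2 sense_intronic rows was lower.

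As for the miRNAs, most called ncRNA rows had the same direction in the saline groups. Of the 143 called rows, 140 had the same sign between F0_ABS-SAL and F0_SAL and 91 were also called there. Here too the same counts were not made over all rows tested, so no excess can be read from them. The interaction was called for 0 of the tested rows with edgeR and 0 with DESeq2. In edgeR 13 rows had an unadjusted p under 0.05, and the smallest adjusted p was 0.99.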

How the data were processed

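Small RNA libraries of cauda epididymal sperm were sequenced by the authors, and reads were trimmed, filtered and aligned to the rat genome with sRNAbench (rn6 per the submitters' notes), first to miRBase and then, for the remaining reads, to Ensembl ncRNA. The authors deposited raw read counts in 2 matrices, 1 for mature miRNAs and 1 for ncRNA transcripts, with 1 column per library and no normalization. The column names were matched to the groups F0_MOR, F0_ABS-MOR, F0_SAL and F0_ABS-SAL through the treatment they name and, for REG and TO, through the selection rule and group size, they give no replicate number, and 0 columns were left out. The labels call the libraries biological replicates.

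Counts were analysed in R 4.3.3 with edgeR 4.0.16 (TMM, filterByExpr over 4 groups, glmQLFit and glmQLFTest), with all 25 libraries in 1 fit per matrix, and with Benjamini–Hochberg adjustment over all transcripts tested in that matrix. Every adjusted p of a log2 fold change comes from this fit unless another tool is named. Transcripts were called where the adjusted p was under 0.1 and the absolute log2 fold change over 0.58. An SE is the log2 fold change divided by the square root of its F statistic. Normalized counts are raw counts divided by the effective library size relative to its geometric mean. ncRNA rows with identical counts in all libraries were collapsed. The 2 matrices were fitted separately, so levels are compared within a matrix only. Arm ratios were compared with limma 3.58.1, and shares and 3 single transcripts with two-sided exact permutation tests over the 13 libraries. DESeq2 1.42.0, other scalings, filters and thresholds, and leaving out each library were alternatives.

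Named transcripts came from a rule: those with the smallest p in each direction, called members of each list with their opposite arms and cluster partners, cell type markers, the most abundant, miR-150-5p, which the study names, and 1 snoRNA from an earlier analysis of these data. Families were defined by name and by seed, and clusters by miRNA genes within 10 kb in RefSeq. The members and lists were chosen with earlier results of these data known.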

Additional observations from a re-analysis of the deposited data

Results flagged for a closer look

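Within groups of 6 or 7 libraries, 168 sets of values were checked for a single library far from the others (Dixon's gap test at the 95% level), and 9 were found, where chance gives about 8.4. In the F0_MOR group, library N had 22.7% of its ncRNA counts on rRNA, and the nearest library had 9.19%. The 8 others were single transcripts, given as log2 CPM. Among the F0_ABS-MOR libraries, S stood at 6.28 for rno-miR-205 (nearest 7.21) and at 13.66 for rno-miR-30c-5p (nearest 13.12), and Q stood at 3.90 for rno-miR-144-5p (nearest 5.89). Among the F0_MOR libraries, M stood at 11.35 for rno-miR-100-5p (nearest 10.35), G at 3.38 for rno-miR-96-5p (nearest 4.81) and at 4.66 for ENSRNOT00000086241.1 (nearest 5.33), A at 12.12 for ENSRNOT00000077425.1 (nearest 12.80) and U at 4.35 for ENSRNOT00000091412.1 (nearest 3.17).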

How the results depend on the processing

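No paired analysis was possible because the columns carry no replicate number. The number of called miRNAs was 67, between 63 and 92 under DESeq2, voom, the 3 other scalings, no filter, a fit of the 2 groups alone, a covariate for library total and no fold threshold, 56 with at least 10 counts in every library, and 43 at an adjusted p under 0.05. It was between 49 (without A) and 82 (without M) with libraries left out in turn. For ncRNA rows it was 143, between 116 and 183 under the other alternatives, 66 with at least 10 counts in every library, and between 129 and 184 with libraries left out. The number of hairpins with a changed arm ratio was 5, 6 with a prior count of 2, 3 with at least 10 counts of each arm, and between 2 and 5 with libraries left out. The interaction was called for 0 transcripts in each of 3 scalings.

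For biotype shares, with identical rows kept the mitochondrial rRNA difference was -16.8 and the rRNA difference -4.76 percentage points, both past the threshold. Without mitochondrial rRNA the rRNA difference was -19.0, and that of lincRNA changed sign to -0.0886 from 0.0915. With near copies reduced, an alternative chosen after seeing the data like the library total without miR-34 and miR-449 (66 called miRNAs), the misc_RNA difference was -0.639. With libraries left out, the difference ranged from -2.41 to -1.62 for misc_RNA, from -10.1 to -4.64 for mitochondrial rRNA and from -4.78 to -1.52 for rRNA. Among the named transcripts, no fit with a library left out and no other setting reversed a direction. With libraries left out, 707 of 793 miRNA fits kept their side of the threshold and 70 lost the call, while 4 ncRNA fits lost it. The causes of these changes were not tested. sRNAbench was set to a minimum of 2 reads, so a 0 in the matrices can stand for a single read.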
